A study of Rattus norvegicus with 12 samples.

Results

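The enzymes that oxidise pyruvate, the acetyl group and fatty acids sit in the mitochondrial matrix and its membranes, but their genes are nuclear and their mRNAs are translated in the cytosol or at the mitochondrial surface. The group described here was chosen by name as 32 such enzymes of pyruvate oxidation, the TCA cycle and beta-oxidation. All 32 were found among the 30560 genes of the deposited counts, all 32 passed the filter on low counts that 86.7% of genes passed, and none had a count of 0 in any library. The muscle came from the hindlimb (gastrocnemius, per the design text) of 1 wild-type male rat of the Wistar Kyoto strain, 14 weeks old. Its homogenate was divided into aliquots, from which 4 groups of 3 libraries were prepared. In the IP_RNase group, mitochondria were captured with antibody-coated magnetic beads and treated with RNase A, which degrades accessible RNA. The IP_RNase_ProK group was captured in the same way and treated with RNase A and proteinase K, a protease that strips proteins from the outside of the organelle. Mitoplasts, the organelles left once the outer membrane is removed, were derived from captured mitochondria and treated with RNase A in the mitoplast_RNase group. In crude_RNase, mitochondria were collected by differential centrifugation, without beads, and treated with RNase A. The labels of crude_RNase conflict: its source and tissue fields give immunoprecipitation, and its title and the design give crude mitochondria; the title was followed. Libraries were made from 40 ng of RNA in the 3 captured groups and from 6.3 ng in crude_RNase, so capture and RNA input cannot be told apart. With 1 animal behind all libraries, every SD, SE and p-value here reflects variation among aliquots, which can be purely technical.

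Pyruvate enters the matrix, the pyruvate dehydrogenase complex converts it to acetyl-CoA, and the TCA cycle oxidises the acetyl group while reducing electron carriers. Fatty acids reach the same acetyl-CoA through the carnitine shuttle and repeated rounds of beta-oxidation, whose electrons pass through the electron transfer flavoprotein to the respiratory chain. Skeletal muscle, and its oxidative fibres most of all, holds these enzymes at high levels. Many of their genes are known targets of the nuclear respiratory factors and of the estrogen-related receptors.

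RefSeq windows of 300 bases around the gene start (250 before and 50 after, assembly GRCr8) matched 27 of the 32 genes, all but Acaa2, Decr1, Idh3a, Acadl and Cpt1b. They were searched on both strands for 4 motifs, none of which contains another. The GC box GGGCGG was in 20 of the 27 windows (74.1%), against 33.1% of all 33469 windows. The CCAAT box was in 12 (44.4%), against 37.5% of all windows. The nuclear respiratory factor 1 element, as a palindromic core with 1 free base, was in 4 (14.8%), those of Dld, Sucla2, Etfb and Etfdh, against 4.25% of all windows. The estrogen-related receptor element TCAAGGTCA was in 0 of the 27 windows and in 0.433% of all windows. These matches describe letters in the windows and say nothing of binding. The stretch between Hadha and Hadhb is shown because these genes, which encode the subunits of the trifunctional protein, are divergent neighbours whose windows share 200 bases. The stretch before Sucla2 is shown as an example that holds an element of the nuclear respiratory factor and a GC box. Of the 4 genes with that element, Sucla2 was lower in all 3 captured groups, Dld in 2, and Etfb and Etfdh in 0. A link between motifs and levels was not tested. Both are on the plus strand, read 5′ to 3′, at chr6:31907558-31907800 and chr15:55161644-55161893. Capitals mark the GC box and, at the second capital stretch of Sucla2, the nuclear respiratory factor 1 element, both read on the opposite strand.
Hadha and Hadhb: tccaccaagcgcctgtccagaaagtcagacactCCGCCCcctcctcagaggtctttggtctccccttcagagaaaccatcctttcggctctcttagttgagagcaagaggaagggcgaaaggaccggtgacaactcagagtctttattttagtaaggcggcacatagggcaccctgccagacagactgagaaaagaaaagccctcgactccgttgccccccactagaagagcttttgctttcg
Sucla2: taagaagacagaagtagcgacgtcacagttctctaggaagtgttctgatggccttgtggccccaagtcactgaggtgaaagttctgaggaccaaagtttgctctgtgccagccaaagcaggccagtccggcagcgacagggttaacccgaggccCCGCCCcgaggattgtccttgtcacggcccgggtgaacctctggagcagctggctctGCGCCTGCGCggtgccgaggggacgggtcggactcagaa

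Whether the enzyme mRNAs were more or less abundant after capture depended on what they were scaled to. As a share of all gene counts, the 32 genes together took 0.113% ± 0.00428 in IP_RNase, 0.116% ± 0.000517 in IP_RNase_ProK and 0.113% ± 0.00209 in mitoplast_RNase, against 0.0750% ± 0.00822 in crude_RNase (SD, n = 3 each). Every captured library was above every crude library on that scale. The genes of the mitochondrial chromosome, however, took 6.51% ± 3.95, 2.75% ± 0.653 and 3.28% ± 0.719 of all counts in IP_RNase, IP_RNase_ProK and mitoplast_RNase, against 49.5% ± 7.18 in crude_RNase. As a share of nuclear gene counts, the 32 genes took 0.121% ± 0.00199, 0.120% ± 0.000725 and 0.117% ± 0.00133 in the 3 captured groups in that order, against 0.149% ± 0.00463 in crude_RNase. On that scale every captured library was below every crude library. Per 100 counts of the 13 mitochondrial mRNAs, the enzyme genes had 3.16 ± 1.34 counts in IP_RNase, 6.76 ± 1.11 in IP_RNase_ProK and 6.55 ± 0.958 in mitoplast_RNase, against 0.297 ± 0.0636 in crude_RNase. Fold changes below use TMM scaling, which sets the typical gene near 0, so they state a level relative to the typical, mostly nuclear, gene.

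**Figure D1:**
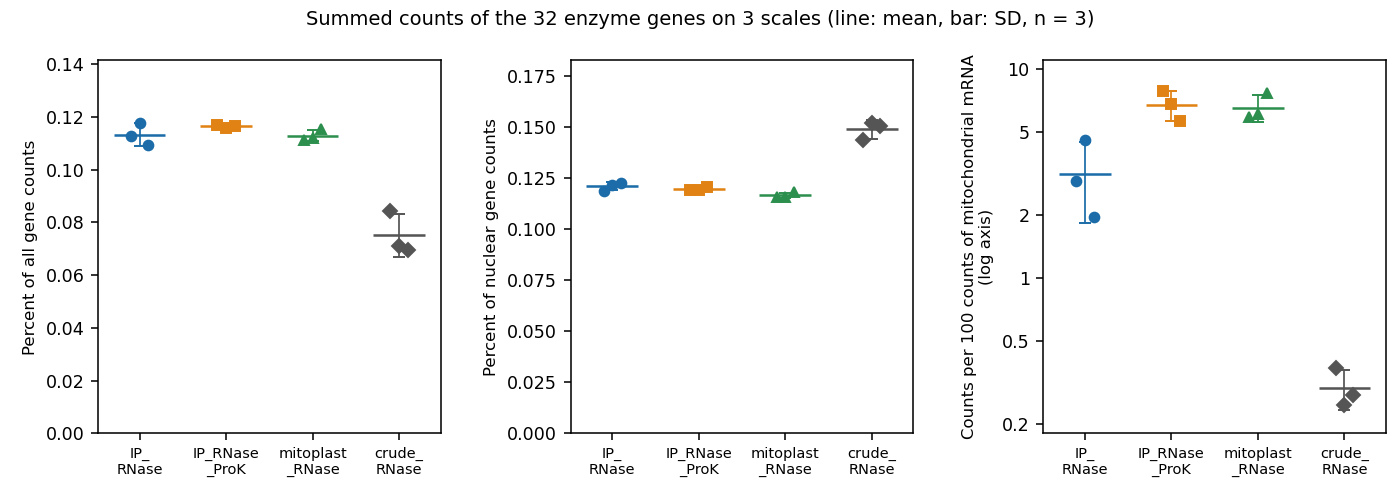
Summed counts of the 32 enzyme genes in every library as a percent of all gene counts, as a percent of nuclear gene counts, and per 100 counts of mitochondrial mRNA (log axis). Points are libraries, lines are group means and bars are SD (n = 3 each). The captured libraries lie above the crude libraries in the left and right panels and below them in the middle panel.

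The library totals were 3325430 to 4563254 counts in the captured groups and 6583452 to 7123045 in crude_RNase. The median enzyme gene had 102.5 to 152.5 counts per library, not scaled for gene length. The 1115 olfactory receptor genes, odorant sensors most of which muscle is not known to transcribe, had a median of 37 to 49 counts per captured library and 30 to 34 per crude library. The median nuclear gene had 70 to 97 counts per captured library and 63 to 78 per crude library. Weak counts, and the typical gene to which TMM scaling refers, thus lie over such a level. Its share in the fold changes and ratios was not tested. Chi-square per degree of freedom between replicates of a group was 1.24 to 12.07, above the level of counting alone. It pools all genes, those of the mitochondrial chromosome included, and cannot show whether libraries came from the same RNA. All 12 muscle fibre markers found by name (Myh1, Atp2a1 and Pvalb were not) had counts in every library. Their summed level was 610.2 to 714 CPM in IP_RNase, 581 to 606 CPM in IP_RNase_ProK and 614 to 766 CPM in mitoplast_RNase, against 5822 to 7419 CPM in crude_RNase. All 12 were lower in each captured group, with a median log2 fold change of -3.33, -3.39 and -3.12 in that order. The 6 fibroblast markers summed to 368 to 393, 353 to 363 and 374 to 378 CPM, against 1560 to 1705 CPM in crude_RNase, and 5 of the 6 were lower in each group. None of the 5 endothelial markers was called in any of these comparisons. Of 5 adipocyte markers, 5 leukocyte markers and 3 erythroid markers, 1 of each list was lower in each captured group, and 1 adipocyte marker was higher in IP_RNase_ProK. Of all genes tested, 5.09%, 5.04% and 4.54% were lower and 1.26%, 1.45% and 0.997% were higher in the 3 captured groups. No marker was at 0. The part of these marker differences in the enzyme results was not tested. All groups were aliquots of 1 homogenate, so the marker levels compare preparations of the same muscle.

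Relative to the typical gene, most enzyme mRNAs were lower after capture, a direction that flips when counts are scaled to library size alone. By edgeR's quasi-likelihood test with Benjamini-Hochberg adjustment over all 26483 genes and a threshold of 0.05, 20 of the 32 were lower in IP_RNase than in crude_RNase, against 5.09% of all genes. In IP_RNase_ProK 22 of the 32 were lower than in crude_RNase, against 5.04% of all genes, and in mitoplast_RNase 22 were lower, against 4.54% of all genes. None of the 32 was called higher in any of these comparisons. With only 1.26%, 1.45% and 0.997% of all genes higher, 0 of 32 says little. At an unadjusted p under 0.05 the counts were 25, 26 and 27, all lower, against 10.5%, 10.5% and 9.95% of all genes lower. DESeq2 called 16, 17 and 21 lower, against 3.91%, 4.02% and 3.65% of the genes it tested. It called 0 higher, against 0.55%, 0.701% and 0.425% of those genes, which says as little. The median log2 fold change of the 32 genes was -0.45 in IP_RNase, -0.45 in IP_RNase_ProK and -0.54 in mitoplast_RNase, beside 0.01, 0.00 and 0.00 for all genes tested. The values of the 3 captured libraries were all below those of the 3 crude libraries for 24, 26 and 28 of the 32 genes in the same order, against 10.8%, 11.3% and 10.7% of all genes. They were all above them for 0 enzyme genes, against 8.61%, 9.12% and 8.26% of all genes. These comparisons share the crude_RNase libraries. With library size alone as the scale, 28, 28 and 25 of the 32 enzyme genes were higher, as were 94.8%, 95.3% and 95.3% of all genes, and 0 were lower, against 0.714%, 0.699% and 0.676% of all genes. The medians on that scale were 0.57, 0.63 and 0.54 for the enzyme genes, beside 1.03, 1.09 and 1.08 for all genes.

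**Figure D2:**
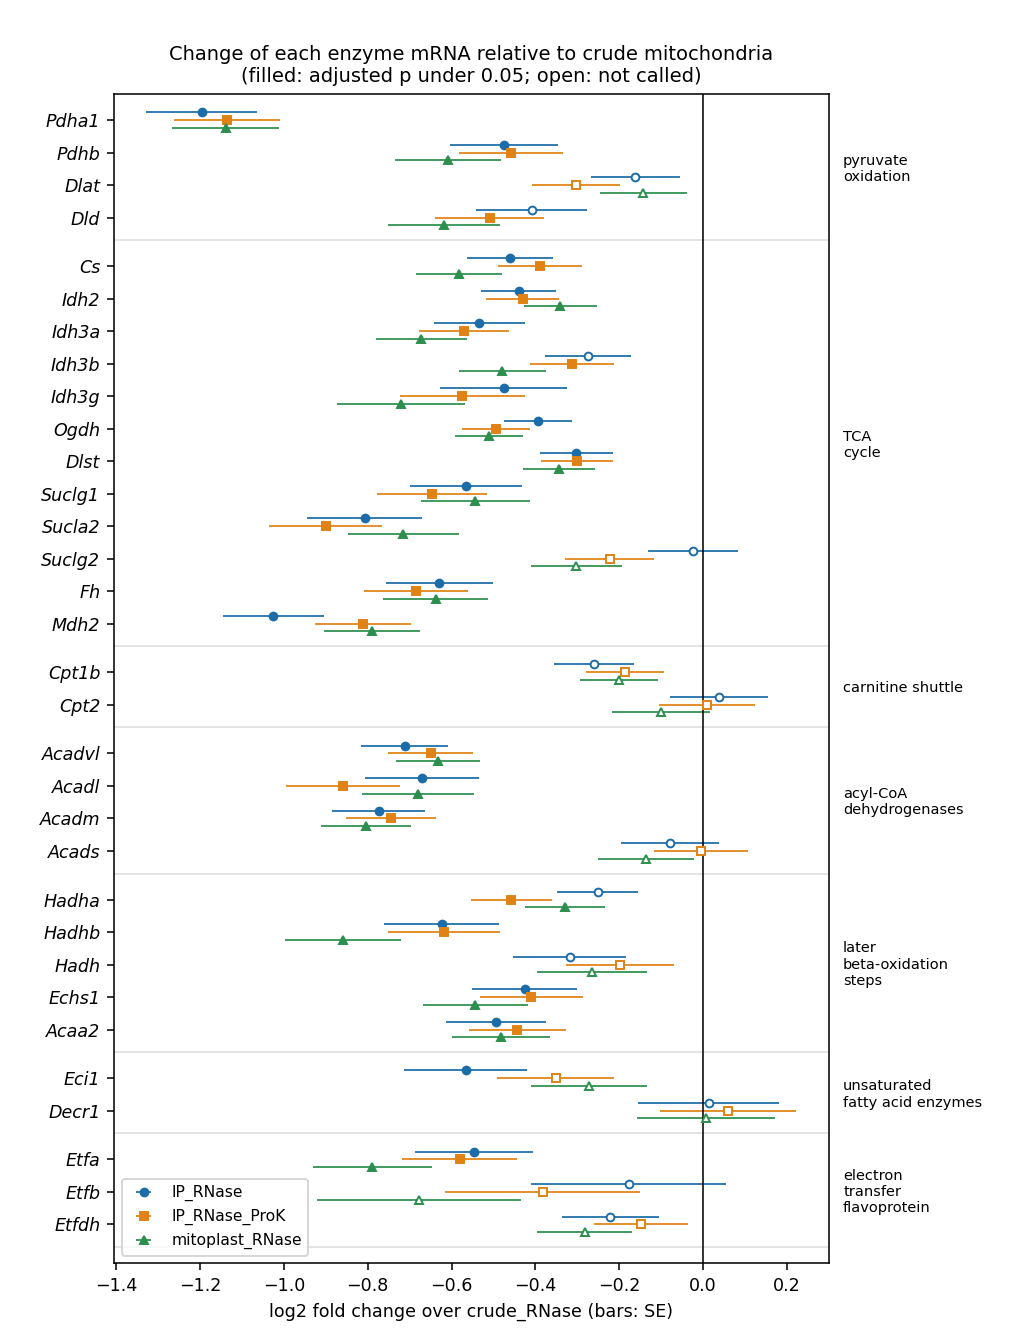
Log2 fold change of each of the 32 enzyme mRNAs over crude_RNase, after TMM scaling, for IP_RNase, IP_RNase_ProK and mitoplast_RNase, ordered by pathway role. Points are edgeR estimates, bars are SE, and filled points passed an adjusted p of 0.05. Filled points lie left of 0 for 20, 22 and 22 genes and none lies right of it. With library size scaling, 28, 28 and 25 of the 32 genes, and 94.8%, 95.3% and 95.3% of all genes, were called higher.

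**Figure D3:**
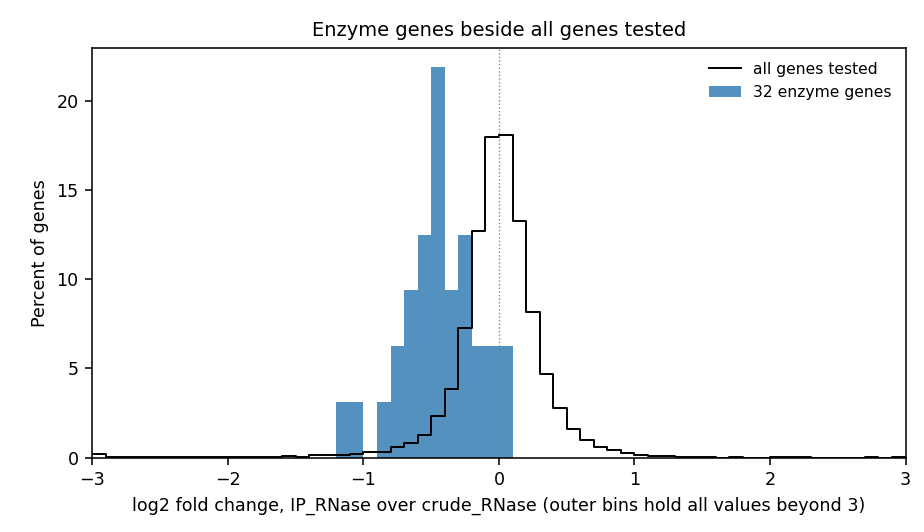
Distribution of log2 fold changes of IP_RNase over crude_RNase in bins of 0.1, as percent of the 32 enzyme genes (bars) and percent of all 26483 genes tested (line), after TMM scaling. The enzyme genes centre on -0.45 and all genes on 0.01, and with library size scaling both move right, to 0.57 and 1.03.

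The 16 genes of pyruvate oxidation and the TCA cycle were lower for 12, 14 and 14 members in IP_RNase, IP_RNase_ProK and mitoplast_RNase. The 16 genes of fatty acid oxidation were lower for 8 members in each. Of all genes tested, 5.09%, 5.04% and 4.54% were lower in these comparisons. Their medians were -0.47, -0.50 and -0.60 for the pyruvate and TCA genes and -0.37, -0.40 and -0.41 for the fatty acid genes; the difference between these gene sets was not tested. Over all roles, 19 genes were lower in all 3 comparisons, 3 in 2 of them (Dld, Idh3b and Hadha), 1 in 1 (Eci1, in IP_RNase) and 9 in none (Dlat, Suclg2, Cpt1b, Cpt2, Acads, Hadh, Decr1, Etfb and Etfdh). The 3 comparisons share the crude_RNase libraries, so a call in all 3 is not independent support. The share of all genes lower in all 3 was not counted.

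The pyruvate dehydrogenase complex gave the lowest fold change among the 32 genes in all 3 comparisons, that of Pdha1, while Dlat was not called. Pdha1, which encodes the catalytic alpha subunit that regulatory kinases phosphorylate, had 20.5, 14.7 and 18.3 CPM in IP_RNase, 19.1, 15.1 and 21.6 CPM in IP_RNase_ProK and 18.0, 19.3 and 18.6 CPM in mitoplast_RNase, against 41.3, 41.2 and 40.6 CPM in crude_RNase. The highest of the 9 captured libraries was well under the lowest crude library. The log2 fold change of Pdha1 was -1.20 (SE 0.13) in IP_RNase, -1.14 (SE 0.13) in IP_RNase_ProK and -1.14 (SE 0.13) in mitoplast_RNase, with adjusted p of 2.5e-10, 3.9e-10 and 4.2e-10 by edgeR's quasi-likelihood test. Expressed as a ratio, its level in IP_RNase was 0.436 of that in crude_RNase. Pdhb, which encodes the beta subunit of the same enzyme, had 22.9, 25.6 and 23.4 CPM in IP_RNase, 22.7, 27.5 and 22.6 CPM in IP_RNase_ProK and 17.6, 24.8 and 23.0 CPM in mitoplast_RNase, against 32.5, 35.1 and 32.2 CPM in crude_RNase. The groups did not overlap, but the gap was narrower than for Pdha1. Relative to crude_RNase, the log2 fold change was -0.47 (SE 0.13) in IP_RNase, -0.46 (SE 0.12) in IP_RNase_ProK and -0.61 (SE 0.13) in mitoplast_RNase, with adjusted p of 0.012, 0.013 and 0.00056. Without IP_RNase replicate 1 or 3 the IP_RNase call of Pdhb was lost (edgeR adjusted p of 0.071 and 0.055), as was its IP_RNase_ProK call without IP_RNase_ProK replicate 1 or 3 (0.102 and 0.077). DESeq2 with all libraries called Pdhb in neither (DESeq2 adjusted p of 0.058 in IP_RNase and 0.065 in IP_RNase_ProK). Dld, the dihydrolipoamide dehydrogenase shared with the oxoglutarate dehydrogenase complex, was lower in IP_RNase_ProK and mitoplast_RNase, with log2 fold changes of -0.51 (SE 0.13) and -0.62 (SE 0.13). Its IP_RNase value of -0.41 (SE 0.13) was not called (edgeR adjusted p = 0.051) but was without IP_RNase replicate 1 (0.021) or crude_RNase replicate 1 (0.0025), and its IP_RNase_ProK call was lost without IP_RNase_ProK replicate 1 (0.073) or crude_RNase replicate 3 (0.145). Dlat, the acetyltransferase core of the complex, had log2 fold changes of -0.16 (SE 0.11), -0.30 (SE 0.11) and -0.14 (SE 0.10) in the 3 captured groups, none of them called.

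**Figure D4:**
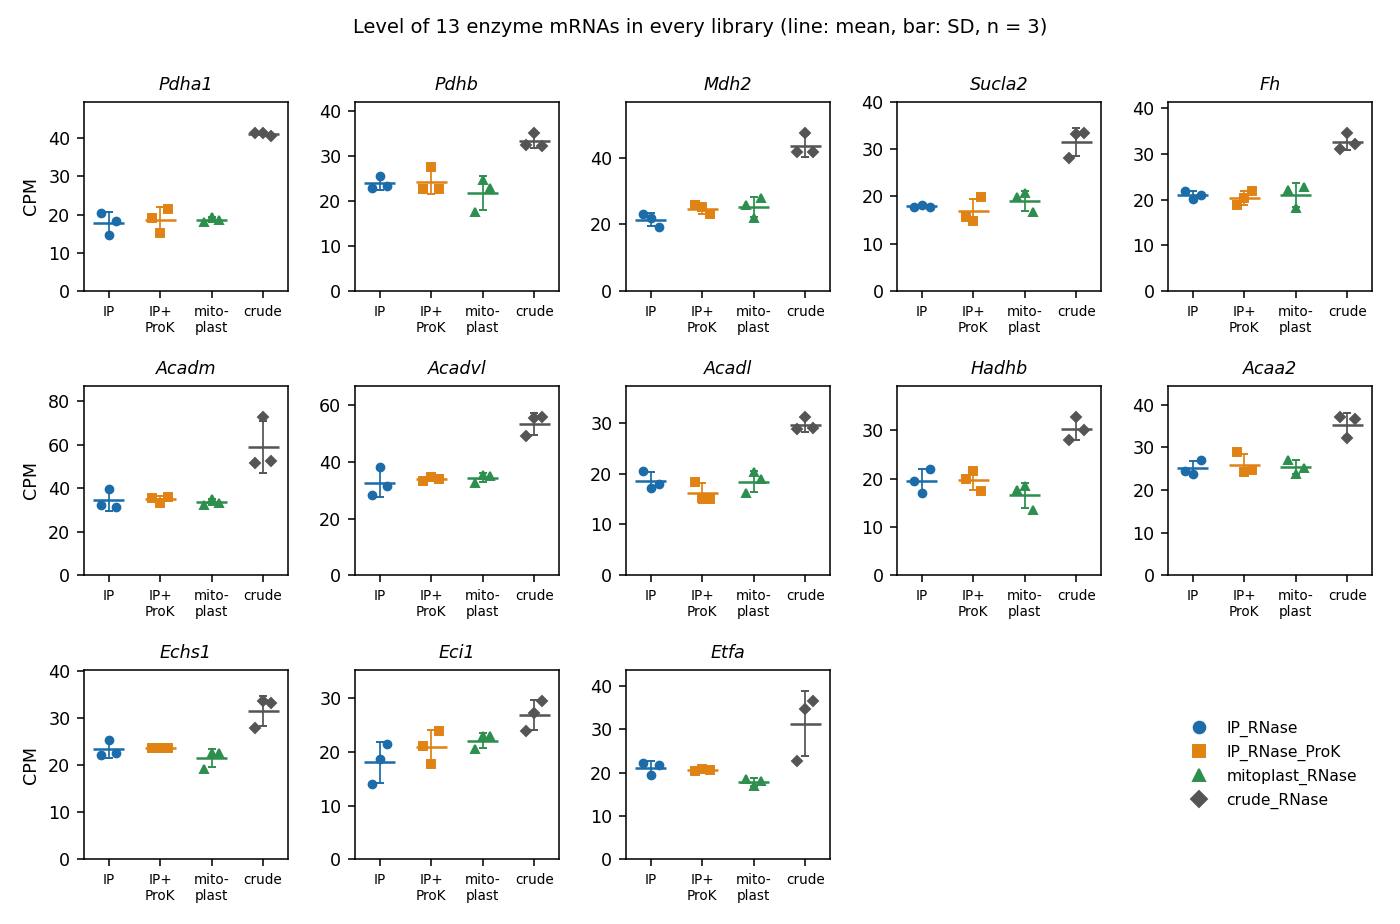
Level in CPM after TMM scaling of the 13 enzyme mRNAs described library by library, in IP_RNase, IP_RNase_ProK, mitoplast_RNase and crude_RNase. Points are libraries, lines are means and bars are SD (n = 3 each). Each gene's crude libraries are higher than its captured libraries on this scale, by the least for Eci1, with 23.9 CPM in 1 IP_RNase_ProK library beside 24.0 CPM in 1 crude library; with library size scaling all but Pdha1 have log2 fold changes above 0.

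In the TCA cycle, 10, 11 and 11 of the 12 genes were lower in IP_RNase, IP_RNase_ProK and mitoplast_RNase, and all 12 had a log2 fold change under 0 in each. Of all genes tested, 5.09%, 5.04% and 4.54% were lower by the test. A log2 fold change under 0 was found for 12908, 13064 and 12963 of all 26483 genes. Mdh2, the malate dehydrogenase that regenerates oxaloacetate, had 23.1, 21.9 and 19.2 CPM in IP_RNase, 25.9, 25.3 and 23.1 CPM in IP_RNase_ProK and 25.7, 22.0 and 28.0 CPM in mitoplast_RNase, against 41.7, 47.4 and 41.8 CPM in crude_RNase. All 9 captured libraries were lower than each crude library. This gave log2 fold changes of -1.03 (SE 0.12) in IP_RNase, -0.81 (SE 0.11) in IP_RNase_ProK and -0.79 (SE 0.11) in mitoplast_RNase, with adjusted p of 2.0e-09, 2.4e-07 and 4.7e-07 by edgeR's quasi-likelihood test. Sucla2, the ADP-forming beta subunit of succinyl-CoA ligase, had 17.7, 18.2 and 17.9 CPM in IP_RNase, 15.7, 14.9 and 19.9 CPM in IP_RNase_ProK and 19.9, 20.6 and 16.6 CPM in mitoplast_RNase, against 28.0, 33.2 and 33.4 CPM in crude_RNase. The captured and crude values did not overlap. The log2 fold change of Sucla2 was -0.81 (SE 0.14) in IP_RNase, -0.90 (SE 0.14) in IP_RNase_ProK and -0.72 (SE 0.13) in mitoplast_RNase, with adjusted p of 1.6e-05, 1.0e-06 and 8.0e-05. Fh, the fumarase that hydrates fumarate to malate, had 21.9, 20.2 and 21.1 CPM in IP_RNase, 18.8, 20.4 and 21.8 CPM in IP_RNase_ProK and 22.1, 18.1 and 22.8 CPM in mitoplast_RNase, against 31.2, 34.5 and 32.2 CPM in crude_RNase. The captured libraries were again all lower. Relative to crude_RNase, the log2 fold change was -0.63 (SE 0.13) in IP_RNase, -0.69 (SE 0.13) in IP_RNase_ProK and -0.64 (SE 0.12) in mitoplast_RNase, with adjusted p of 0.00035, 5.9e-05 and 0.0002.

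The other TCA genes had smaller log2 fold changes in IP_RNase. Idh3a, Idh3b and Idh3g encode the subunits of the NAD-dependent isocitrate dehydrogenase. Idh3a had log2 fold changes of -0.53 (SE 0.11), -0.57 (SE 0.11) and -0.67 (SE 0.11) in IP_RNase, IP_RNase_ProK and mitoplast_RNase, and Idh3g had -0.48 (SE 0.15), -0.58 (SE 0.15) and -0.72 (SE 0.15), all lower by the test. Idh3b had -0.27 (SE 0.10), -0.31 (SE 0.10) and -0.48 (SE 0.10), of which the first was not called (edgeR adjusted p = 0.109). Suclg1, the alpha subunit of succinyl-CoA ligase, had -0.57 (SE 0.13), -0.65 (SE 0.13) and -0.54 (SE 0.13) and was lower in each group. Suclg2, the GDP-forming beta subunit that pairs with the same alpha subunit, had -0.02 (SE 0.11), -0.22 (SE 0.11) and -0.30 (SE 0.11) and was called in none, though in mitoplast_RNase it was without crude_RNase replicate 1 (edgeR adjusted p = 0.028). Citrate synthase (Cs), the NADP-dependent isocitrate dehydrogenase (Idh2), oxoglutarate dehydrogenase (Ogdh) and its succinyltransferase partner (Dlst) were lower in all 3 groups, with log2 fold changes between -0.58 and -0.30. Several of these calls were lost without 1 library. In IP_RNase, the call of Idh3g was lost without IP_RNase replicate 1, 2 or 3, IP_RNase_ProK replicate 2, mitoplast_RNase replicate 1 or crude_RNase replicate 1 or 3 (edgeR adjusted p of 0.052 to 0.128), that of Dlst without IP_RNase replicate 1, 2 or 3 or crude_RNase replicate 2 (0.054 to 0.088), and that of Cs without IP_RNase replicate 1 (0.063). In IP_RNase_ProK, Idh3b was lost without any 1 library other than IP_RNase replicate 1 (0.051 to 0.182). Dlst was lost there without IP_RNase_ProK replicate 1 or 3 or crude_RNase replicate 2 (0.060 to 0.101). Idh3g was lost there without IP_RNase_ProK replicate 1 or 2 (0.092 and 0.061), and Cs without IP_RNase_ProK replicate 1 (0.118). In mitoplast_RNase, Suclg1 was lost without mitoplast_RNase replicate 1 or crude_RNase replicate 3 (0.094 and 0.062) and Idh2 without mitoplast_RNase replicate 2 (0.072). With all libraries, DESeq2 did not call Idh3g in IP_RNase (DESeq2 adjusted p = 0.163), Idh3b in IP_RNase_ProK (0.184) or Dlst in IP_RNase and IP_RNase_ProK (0.090 and 0.081). Fits of only the groups compared also missed Idh3g in IP_RNase (edgeR adjusted p = 0.077), Idh3b in IP_RNase_ProK (0.082) and Dlst in IP_RNase and IP_RNase_ProK (0.073 and 0.052).

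Neither gene of the carnitine shuttle was called. Cpt1b, the muscle carnitine palmitoyltransferase of the outer membrane, had log2 fold changes of -0.26 (SE 0.10), -0.19 (SE 0.09) and -0.20 (SE 0.09) in IP_RNase, IP_RNase_ProK and mitoplast_RNase (edgeR adjusted p of 0.097, 0.278 and 0.250). Its IP_RNase value was called without IP_RNase replicate 3 (0.023) or crude_RNase replicate 2 (0.026). Cpt2, its counterpart on the inner membrane, had 0.04 (SE 0.12), 0.01 (SE 0.11) and -0.10 (SE 0.12). Cpt2 averaged 30.5 ± 1.14 CPM in IP_RNase, 30.0 ± 1.74 CPM in IP_RNase_ProK and 27.7 ± 2.43 CPM in mitoplast_RNase, against 29.7 ± 2.35 CPM in crude_RNase (SD, n = 3 each), so the means differed by less than the spread between the crude libraries.

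Of the acyl-CoA dehydrogenases, which take the first oxidation step for fatty acids of different chain length, 3 of 4 were lower in each comparison. The shares of all genes lower were 5.09%, 5.04% and 4.54% in IP_RNase, IP_RNase_ProK and mitoplast_RNase. Acadm, for medium chains, had 32.2, 39.8 and 31.1 CPM in IP_RNase, 35.4, 33.3 and 36.1 CPM in IP_RNase_ProK and 32.4, 35.2 and 33.1 CPM in mitoplast_RNase, against 51.6, 72.5 and 52.4 CPM in crude_RNase. The crude library at 72.5 CPM stood above the other crude libraries, and the lowest crude value still exceeded each captured value. This gave log2 fold changes of -0.77 (SE 0.11) in IP_RNase, -0.75 (SE 0.11) in IP_RNase_ProK and -0.80 (SE 0.11) in mitoplast_RNase, with adjusted p of 3.4e-07, 3.9e-07 and 8.2e-08 by edgeR's quasi-likelihood test. Acadvl, for very long chains, had 28.4, 38.1 and 31.4 CPM in IP_RNase, 33.3, 34.8 and 34.0 CPM in IP_RNase_ProK and 32.6, 35.6 and 35.0 CPM in mitoplast_RNase, against 49.1, 55.7 and 55.8 CPM in crude_RNase. The captured libraries did not reach the crude range. The log2 fold change of Acadvl was -0.71 (SE 0.10) in IP_RNase, -0.65 (SE 0.10) in IP_RNase_ProK and -0.63 (SE 0.10) in mitoplast_RNase, with adjusted p of 6.2e-07, 2.2e-06 and 4.4e-06. Acadl, for long chains, had 20.5, 17.2 and 17.9 CPM in IP_RNase, 18.4, 15.1 and 15.0 CPM in IP_RNase_ProK and 16.1, 20.2 and 18.8 CPM in mitoplast_RNase, against 28.7, 31.1 and 28.9 CPM in crude_RNase. The ranges were again separate. Relative to crude_RNase, the log2 fold change was -0.67 (SE 0.14) in IP_RNase, -0.86 (SE 0.14) in IP_RNase_ProK and -0.68 (SE 0.13) in mitoplast_RNase, with adjusted p of 0.00038, 3.4e-06 and 0.00021. Acads, for short chains, had log2 fold changes of -0.08 (SE 0.12), -0.00 (SE 0.11) and -0.14 (SE 0.11) and was not called; it averaged 30.5 ± 4.03 CPM in IP_RNase, 32.1 ± 0.922 CPM in IP_RNase_ProK and 29.3 ± 1.15 CPM in mitoplast_RNase, against 32.1 ± 2.17 CPM in crude_RNase (SD, n = 3 each).

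The later steps of beta-oxidation were lower for 3, 4 and 4 of 5 genes, against 5.09%, 5.04% and 4.54% of all genes. Hadhb, the thiolase subunit of the trifunctional protein, had 19.6, 16.9 and 22.0 CPM in IP_RNase, 19.8, 21.5 and 17.5 CPM in IP_RNase_ProK and 17.6, 18.5 and 13.6 CPM in mitoplast_RNase, against 28.0, 32.7 and 30.0 CPM in crude_RNase. No captured library reached the lowest crude value. This gave log2 fold changes of -0.62 (SE 0.14) in IP_RNase, -0.62 (SE 0.13) in IP_RNase_ProK and -0.86 (SE 0.14) in mitoplast_RNase, with adjusted p of 0.0012, 0.00093 and 5.2e-06 by edgeR's quasi-likelihood test. Acaa2, the ketoacyl-CoA thiolase, had 24.5, 23.6 and 27.0 CPM in IP_RNase, 28.8, 24.2 and 24.6 CPM in IP_RNase_ProK and 27.0, 23.8 and 25.2 CPM in mitoplast_RNase, against 37.0, 32.1 and 36.7 CPM in crude_RNase. The ranges were separate, and the gap was smaller than for Hadhb. The log2 fold change of Acaa2 was -0.49 (SE 0.12) in IP_RNase, -0.44 (SE 0.12) in IP_RNase_ProK and -0.48 (SE 0.12) in mitoplast_RNase, with adjusted p of 0.004, 0.0091 and 0.0042. Echs1, the short-chain enoyl-CoA hydratase, had 22.2, 25.4 and 22.4 CPM in IP_RNase, 23.6, 23.5 and 23.5 CPM in IP_RNase_ProK and 19.2, 22.6 and 22.6 CPM in mitoplast_RNase, against 27.8, 33.5 and 33.1 CPM in crude_RNase. The captured libraries lay under the crude ones. Relative to crude_RNase, the log2 fold change was -0.43 (SE 0.13) in IP_RNase, -0.41 (SE 0.12) in IP_RNase_ProK and -0.54 (SE 0.12) in mitoplast_RNase, with adjusted p of 0.026, 0.028 and 0.0021. Hadha, the hydratase and dehydrogenase subunit that shares its start region with Hadhb, had -0.25 (SE 0.10), -0.46 (SE 0.10) and -0.33 (SE 0.09) and was lower in IP_RNase_ProK and mitoplast_RNase but not called in IP_RNase (edgeR adjusted p = 0.115). Hadh, the short-chain hydroxyacyl-CoA dehydrogenase, had -0.32 (SE 0.13), -0.20 (SE 0.13) and -0.26 (SE 0.13) and was not called. The IP_RNase call of Echs1 was lost without IP_RNase replicate 1 or 3 or crude_RNase replicate 2 or 3 (edgeR adjusted p of 0.084 to 0.126) and its IP_RNase_ProK call without IP_RNase_ProK replicate 1, 2 or 3 or crude_RNase replicate 2 or 3 (0.078 to 0.113). The IP_RNase_ProK call of Acaa2 was lost without IP_RNase_ProK replicate 2 or 3 (0.069 and 0.058), and the mitoplast_RNase call of Hadha without mitoplast_RNase replicate 1 or 3 or crude_RNase replicate 3 (0.067 to 0.127). With all libraries, DESeq2 did not call Echs1 in IP_RNase or IP_RNase_ProK (DESeq2 adjusted p of 0.107 and 0.116), Acaa2 in IP_RNase_ProK (0.0504) or Hadha in mitoplast_RNase (0.111). Fits of only the groups compared missed Echs1 in IP_RNase and IP_RNase_ProK as well (edgeR adjusted p of 0.071 and 0.059).

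The enzymes that handle unsaturated fatty acids and the carriers of their electrons gave few calls. Eci1, the enoyl-CoA isomerase, had 14.0, 18.7 and 21.5 CPM in IP_RNase, 21.1, 17.8 and 23.9 CPM in IP_RNase_ProK and 20.5, 23.0 and 23.0 CPM in mitoplast_RNase, against 24.0, 27.3 and 29.4 CPM in crude_RNase. Its captured libraries lay under the crude ones, but 1 IP_RNase_ProK library was within 0.1 CPM of the lowest crude library. This gave log2 fold changes of -0.57 (SE 0.15) in IP_RNase, -0.35 (SE 0.14) in IP_RNase_ProK and -0.27 (SE 0.14) in mitoplast_RNase, with adjusted p of 0.0081, 0.139 and 0.313 by edgeR's quasi-likelihood test, so it passed in IP_RNase, and that call was lost without IP_RNase replicate 1 (0.156) or crude_RNase replicate 3 (0.054). Decr1, the dienoyl-CoA reductase, had 0.01 (SE 0.17), 0.06 (SE 0.16) and 0.01 (SE 0.16) and was not called. Etfa, the alpha subunit of the electron transfer flavoprotein, had 22.2, 19.4 and 21.8 CPM in IP_RNase, 20.4, 20.9 and 20.7 CPM in IP_RNase_ProK and 18.6, 16.9 and 18.2 CPM in mitoplast_RNase, against 22.7, 34.8 and 36.4 CPM in crude_RNase. Crude replicate 1 lay apart from the other crude libraries and just above the highest captured value. The log2 fold change of Etfa was -0.55 (SE 0.14) in IP_RNase, -0.58 (SE 0.14) in IP_RNase_ProK and -0.79 (SE 0.14) in mitoplast_RNase, with adjusted p of 0.0072, 0.0028 and 4.1e-05, and the IP_RNase call was lost without IP_RNase replicate 2 (0.053) or crude_RNase replicate 3 (0.097), as was the IP_RNase_ProK call without crude_RNase replicate 3 (0.060). Etfb, the beta subunit, had -0.18 (SE 0.23), -0.38 (SE 0.23) and -0.68 (SE 0.24), and Etfdh, the dehydrogenase that passes the electrons to ubiquinone, had -0.22 (SE 0.12), -0.15 (SE 0.11) and -0.28 (SE 0.11). Neither was called with all libraries, though Etfdh was without crude_RNase replicate 1 in IP_RNase and mitoplast_RNase (edgeR adjusted p of 0.034 and 0.0075). Etfb had the fewest counts of the 32 genes, 21 to 44 per library.

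Ratios between partner genes, taken from raw counts within a library, need no scaling across libraries. The Pdha1 to Dlat ratio was 0.399 to 0.547 in IP_RNase, 0.469 to 0.737 in IP_RNase_ProK and 0.462 to 0.552 in mitoplast_RNase, against 0.975 to 1.08 in crude_RNase. The Pdha1 to Pdhb ratio was 0.573 to 0.898, 0.548 to 0.953 and 0.778 to 1.02 in the same order, against 1.18 to 1.27 in crude_RNase. Both ratios were separate in all 3 comparisons. The Sucla2 to Suclg2 ratio was 0.398 to 0.464 in IP_RNase, 0.421 to 0.564 in IP_RNase_ProK and 0.461 to 0.695 in mitoplast_RNase, against 0.678 to 0.850 in crude_RNase, and only mitoplast_RNase overlapped with crude_RNase. The Hadhb to Hadha ratio was 0.342 to 0.462, 0.371 to 0.551 and 0.316 to 0.390, against 0.495 to 0.578 in crude_RNase, with overlap in IP_RNase_ProK. The ratio of mitochondrial Mdh2 to cytosolic Mdh1 was 0.838 to 0.853 in IP_RNase, 1.01 to 1.08 in IP_RNase_ProK and 0.957 to 1.45 in mitoplast_RNase, against 0.823 to 0.894 in crude_RNase. It was within the crude range in IP_RNase and above it in the other captured groups. The Idh2 to Idh1 and Idh3a to Idh3g ratios overlapped with crude_RNase in all 3 groups. For 12 ratios in 3 comparisons, 36 two-sided exact permutation tests were made; 3 libraries against 3 allow no p under 0.1, and the smallest adjusted p was 0.2, so none passed the threshold.

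**Figure D5:**
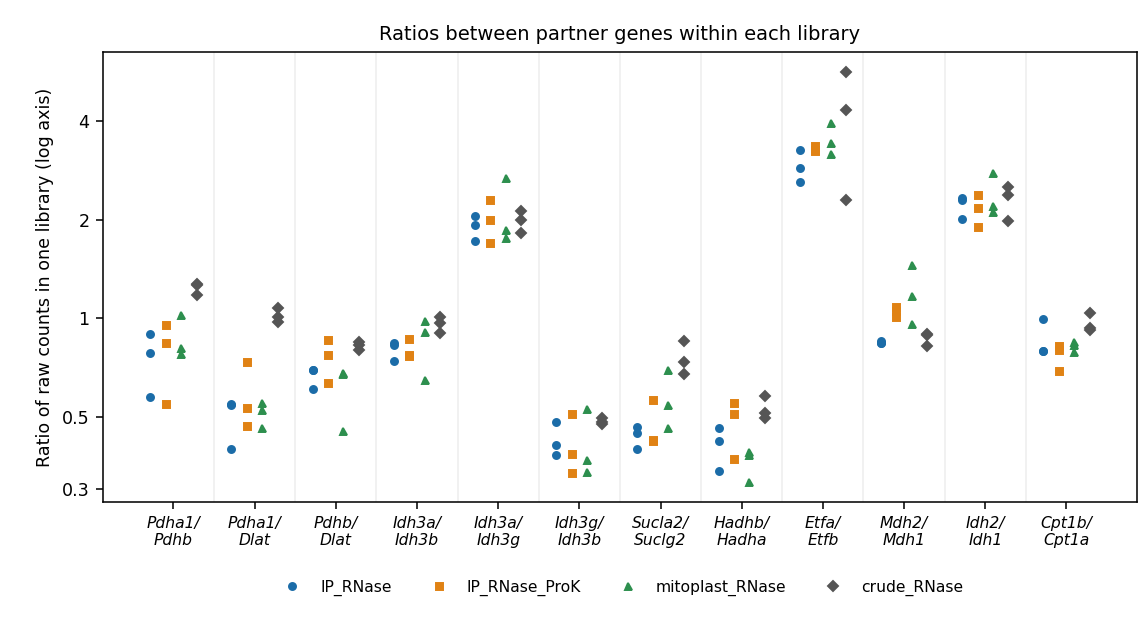
Ratio of the raw counts of 2 genes within each library (log axis) for 12 gene pairs, in IP_RNase, IP_RNase_ProK, mitoplast_RNase and crude_RNase. Points are libraries. The Pdha1 ratios to Dlat are 0.399 to 0.737 in the captured libraries, against 0.975 to 1.08 in the crude ones, while those of Idh2 to Idh1 overlap.

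Part of the other genes of the same pathways were lower too, again relative to the typical gene. Of 42 other mitochondrial genes of these pathways, 11, 12 and 11 were lower in IP_RNase, IP_RNase_ProK and mitoplast_RNase and 0 were higher, with medians of -0.18, -0.19 and -0.24. Beside them, 5.09%, 5.04% and 4.54% of all genes were lower and 1.26%, 1.45% and 0.997% were higher, so 0 higher of 42 says little. Pdk4, the kinase that inhibits pyruvate dehydrogenase, averaged 36.1 ± 3.05 CPM in IP_RNase, 30.9 ± 0.983 CPM in IP_RNase_ProK and 32.3 ± 1.53 CPM in mitoplast_RNase, against 92.3 ± 15.2 CPM in crude_RNase (SD, n = 3 each). Its log2 fold changes were -1.35 (SE 0.10), -1.57 (SE 0.10) and -1.51 (SE 0.10). The succinate dehydrogenase flavoprotein (Sdha) had -0.64 (SE 0.09), -0.70 (SE 0.09) and -0.74 (SE 0.09), and mitochondrial aspartate aminotransferase (Got2) had -0.62 (SE 0.11), -0.56 (SE 0.11) and -0.59 (SE 0.11). All 3 were lower in each comparison, with edgeR adjusted p of at most 0.000186. Of 12 genes of fatty acid supply and regulation found in the file, 3 were lower in each comparison and 0 were higher, with medians of -0.14, -0.02 and -0.04. Given those shares of all genes, 0 higher among so few genes says little about the list. The fatty acid binding protein Fabp3 had -1.01 (SE 0.14), -1.01 (SE 0.14) and -1.20 (SE 0.14), the triglyceride lipase Pnpla2 had -0.73 (SE 0.10), -0.61 (SE 0.10) and -0.76 (SE 0.10), and lipoprotein lipase (Lpl) had -0.40 (SE 0.10), -0.64 (SE 0.10) and -0.50 (SE 0.10). The mitochondrial transcription factor Tfam had -0.40 (SE 0.15), -0.26 (SE 0.14) and -0.21 (SE 0.14) and was not called.

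Cytosolic and peroxisomal counterparts of the enzymes were lower for 3, 3 and 2 of 16 genes and higher for 0, with medians of -0.09, -0.18 and -0.14. Of all genes, 5.09%, 5.04% and 4.54% were lower and 1.26%, 1.45% and 0.997% were higher, so 0 higher of 16 says little. Mdh1, the cytosolic malate dehydrogenase, averaged 25.4 ± 2.18 CPM in IP_RNase, 23.7 ± 1.56 CPM in IP_RNase_ProK and 21.4 ± 1.91 CPM in mitoplast_RNase, against 50.3 ± 2.98 CPM in crude_RNase (SD, n = 3 each). Its log2 fold changes of -0.98 (SE 0.11), -1.08 (SE 0.11) and -1.22 (SE 0.11) stood beside -1.03 (SE 0.12), -0.81 (SE 0.11) and -0.79 (SE 0.11) for the mitochondrial enzyme Mdh2. Got1, the cytosolic aspartate aminotransferase, had -0.40 (SE 0.09), -0.39 (SE 0.08) and -0.36 (SE 0.08) and was lower in each. Idh1, the cytosolic isocitrate dehydrogenase, had -0.39 (SE 0.13), -0.34 (SE 0.12) and -0.37 (SE 0.12) with edgeR adjusted p of 0.0499, 0.094 and 0.061. Acaa1a, a peroxisomal thiolase, had -0.17 (SE 0.11), -0.34 (SE 0.10) and -0.31 (SE 0.10) with edgeR adjusted p of 0.410, 0.034 and 0.067.

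Among the captured groups no enzyme mRNA passed the test. None of the 32 was lower or higher in IP_RNase_ProK than in IP_RNase by edgeR's quasi-likelihood test, and only 0.11% of all genes were lower and 0.0302% higher. In mitoplast_RNase against IP_RNase none was called either, and only 0.132% of all genes were lower and 0.0227% higher. In mitoplast_RNase against IP_RNase_ProK 0 enzyme genes and 0% of all genes were called. At such shares of all genes, 0 of 32 says little about the enzymes. At an unadjusted p under 0.05 the counts were 1, 2 and 0 of 32 in these comparisons, against 8.86%, 8.93% and 2.8% of all genes. DESeq2 also called 0, but in the comparisons with IP_RNase it gave an adjusted p for only 4 of the 32, and it called 0.791%, 0.858% and 0% of the genes it tested. The medians were 0.00, -0.05 and -0.06, and the log2 fold changes ran between -0.21 and 0.21, between -0.50 and 0.29, and between -0.30 and 0.18. SEs were 0.08 to 0.25, and shifts within such errors were not detectable at this depth. The ranges were separate for 3 genes lower and 0 higher in IP_RNase_ProK against IP_RNase, beside 8.27% and 8.36% of all genes. They were separate for 5 lower and 0 higher in mitoplast_RNase against IP_RNase, beside 8.05% and 7.9% of all genes. Suclg2 averaged 34.1 ± 3.87 CPM in mitoplast_RNase and 41.3 ± 3.06 CPM in IP_RNase (SD, n = 3 each), with separate ranges and a log2 fold change of -0.28 (SE 0.11, edgeR adjusted p = 0.426). Etfb averaged 5.12 ± 0.651 CPM in mitoplast_RNase and 7.26 ± 0.435 CPM in IP_RNase, also separate, with -0.50 (SE 0.25, edgeR adjusted p = 0.555). In mitoplast_RNase the ranges of Etfa, Etfb, Etfdh, Acads and Echs1 lay below those in IP_RNase_ProK, which makes 5 of 32 genes lower and 0 higher, against 4.76% and 4.71% of all genes. Their log2 fold changes were -0.21, -0.30, -0.14, -0.13 and -0.13 in that order, with an edgeR adjusted p of 1.00 for each.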

How the data were processed

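Per the labels' protocols, total RNA was treated with DNase I on the column and converted to libraries depleted of ribosomal RNA. FastQC 0.74, cutadapt 4.6, STAR 2.7.11a, HTSeq and the build mRatBN7.2 are named in the submitters' processing notes. No annotation release, strand setting or rule for multiply matching reads is stated there, so members with close copies, such as Pdha1, may share reads. The table deposited by the authors holds raw read counts per gene, with 0 columns of other samples and 0 rows without a gene. Gene lengths were not used, so levels are not compared between genes.

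Groups follow the library titles. Counts were fitted with edgeR 4.0.16 (R 4.3.3) by the quasi-likelihood test with TMM scaling, all 12 libraries in 1 model of 4 groups, after filterByExpr with a minimum count of 10, which kept 26483 genes. Benjamini-Hochberg adjustment ran over all genes within each of 6 comparisons (threshold 0.05). The common dispersion was equivalent to a biological coefficient of variation of 0.0644. CPM values use the TMM-scaled library size. SEs were derived from the log2 fold change and its F statistic, whose dispersion borrows strength from all genes. The code was tested on simulated data. PCR copies are not independent molecules, so errors from counts cover counting only. The members, the other gene lists, the markers and the tests were chosen with earlier results of these data known. Values are given library by library for 13 members, up to 3 called members per role with the largest absolute log2 fold change of IP_RNase against crude_RNase, and for any member called among the captured groups. For the other lists the 4 genes with the smallest p in that comparison are named, apart from 1 that is not reported here. Alternatives were library size scaling, DESeq2 1.42.0, no filter on low counts, the replicate number as a block, fits of only the groups compared, and leaving out each library.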

Additional observations from a re-analysis of the deposited data

How the results depend on the processing

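The scale decided the direction of the comparisons with crude_RNase, and no other setting turned a median or a named member. With library size alone in place of TMM factors, 0 members were lower and 28, 28 and 25 were higher in IP_RNase, IP_RNase_ProK and mitoplast_RNase, with medians of 0.57, 0.63 and 0.54; of all genes 94.8%, 95.3% and 95.3% were higher, with medians of 1.03, 1.09 and 1.08. The log2 fold changes of the named members turned positive, in IP_RNase Pdhb 0.55, Sucla2 0.22, Fh 0.40, Mdh2 0.0045, Acadvl 0.32, Acadl 0.36, Acadm 0.26, Hadhb 0.40, Echs1 0.61, Acaa2 0.53, Eci1 0.46 and Etfa 0.49, in IP_RNase_ProK Pdhb 0.63, Sucla2 0.19, Fh 0.40, Mdh2 0.27, Acadvl 0.44, Acadl 0.22, Acadm 0.35, Hadhb 0.47, Echs1 0.68, Acaa2 0.64, Eci1 0.74 and Etfa 0.52, and in mitoplast_RNase Pdhb 0.47, Sucla2 0.36, Fh 0.44, Mdh2 0.29, Acadvl 0.45, Acadl 0.39, Acadm 0.28, Hadhb 0.22, Echs1 0.54, Acaa2 0.59, Eci1 0.81 and Etfa 0.30. Pdha1 kept a value under 0 (-0.17, -0.05 and -0.07) and lost its call in all 3. Under TMM or DESeq2 factors the median of all genes was within 0.01 of 0 in these comparisons. The other settings kept 0 members higher. DESeq2 gave 16, 17 and 21 lower, no filter 21, 21 and 22, and fits of only the groups compared 17, 19 and 22. The replicate block gave 20, 21 and 22, and it lost the call of Idh3g in IP_RNase (edgeR adjusted p = 0.053) and of Idh3b in IP_RNase_ProK (0.051) and gained that of Dld in IP_RNase (0.049). Deviations from the group means correlated between -0.10 and 0.07 over 18 same-numbered pairs and between -0.09 and 0.12 over 36 other pairs. No sign of pairing by number was thus seen. The deviations include counting noise, so low correlations cannot show that the libraries were unpaired. Leaving out 1 library gave 15 to 21, 15 to 22 and 20 to 24 lower, the fewest without IP_RNase replicate 1, without IP_RNase_ProK replicate 1, and without mitoplast_RNase replicate 1 or crude_RNase replicate 3. Comparisons among captured groups called 0 members in every setting run. Among the 13 named members, 30 values in all kept their direction and missed the threshold under some setting. With 21 to 44 counts per library for Etfb, and olfactory receptor genes at a median of 30 to 49, small shifts of weakly counted members were not detectable at this depth. The cause of the differences between settings was not tested beyond their construction.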
